A study of Mus musculus with 13 samples.

Results

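Mitosis and cell cycle genes are treated here as a set of 35 genes that encode cyclins, mitotic kinases, kinetochore proteins, spindle motors and their regulators. The set was given as a list of gene symbols, and each symbol was matched to its Entrez identifier in the deposited table. All 35 were found among 23366 genes. Pancreas RNA was sequenced from 13 female mice, with 1 library per mouse. Every mouse belonged to the reprogrammable strain i4F-B, which carries a doxycycline-inducible cassette for Oct4, Sox2, Klf4 and Myc (OSKM) inserted in the Pparg gene and inducible in all tissues. The young group (n = 4) was 13 weeks old and the old group (n = 5) was 55 weeks old, and neither received doxycycline. The old-OSKM group (n = 4) was 55 weeks old when it received doxycycline for 7 days, and it was sampled at 58 weeks after 2 weeks of recovery. The controls carry the cassette but did not receive the drug or its drinking water, so doxycycline, OSKM and the 3 added weeks of age cannot be told apart in any comparison with the old-OSKM group. Values are log2 RPKM (reads scaled to transcript length and to library size, on a log2 scale), so a value of 0 is 1 RPKM and a difference of 1 is a doubling. The acinar marker list, the exocrine cells that make up most of the pancreas, averaged between 8.25 and 8.39 in the 13 mice. Quantile normalization gives each library the same set of values, so the most abundant genes repeat them (Pnlip was 10.62 in all 4 young mice). That narrow range is thus largely set by the normalization and is not a measure of acinar content.

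A dividing cell makes these genes in waves. E2F factors switch on the genes of S phase once the G1 cyclins have inactivated Rb, with cyclin E as both an E2F target and a driver of that step. In quiescent cells the DREAM complex keeps the later, mitotic genes silent. When cells proceed to G2, B-Myb and FoxM1 replace the repressive partners and switch the same promoters on, and the anaphase promoting complex then degrades many of the products as the cell divides. In the adult pancreas acinar, duct and islet cells divide rarely, and immune and stromal cells in the organ can divide as well. A bulk library sums over all of these cells, so fewer dividing cells and less RNA per dividing cell cannot be told apart in any result that follows.

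Letters of the cell cycle genes homology region (CHR), through which DREAM, B-Myb and FoxM1 are known to act, were common in the members' promoters. CCAAT boxes were common there as well. RefSeq windows (assembly GRCm38.p6) from 250 bases before to 50 bases after the start site were at hand for 29 of the 35 members. The CHR (letters TTTGAA and the related form TTCGAA, read on both strands, the latter form being its own reverse complement) lay within 50 bases of the start in 18 of the 29 members, 62.1%, against 5.29% of all 27025 genes with such a window. At least 1 CCAAT box, read on both strands, was found in 65.5% of the members' windows against 37.9% of all windows, and 2 or more were found in 44.8% against 12.2%. The E2F letters TTTCCCGC, TTTGGCGC and TTTCGCGC, also read on both strands, were found in 1 member, Cdk1, which is 3.45% against 1.91% of all genes. A match is a description of the letters and not evidence of binding. The 120 bases just before the start are printed for 5 of the members that carry CHR letters there and for Ccne1, which carries none in its window. Ccne1 was picked because it differed from most other members in the values that follow, and a link between letters and values was not tested. Ccnb1, Cenpe, Mad2l1, Nuf2, Birc5, Nusap1, E2f1 and Mybl2 carry no CHR letters in their windows either. Of these, E2f1 and Mybl2 were not highest in old-OSKM mouse 1, and the others were. Capitals mark CHR letters (runs of 6 bases) and CCAAT boxes (runs of 5 bases) in either orientation, and each sequence is written 5′ to 3′ on the strand of the gene.
Cdk1 (chr10:69352913-69353032, - strand): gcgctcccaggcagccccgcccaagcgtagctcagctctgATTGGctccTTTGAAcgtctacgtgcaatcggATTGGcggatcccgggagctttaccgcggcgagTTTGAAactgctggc
Cdc20 (chr4:118437344-118437463, - strand): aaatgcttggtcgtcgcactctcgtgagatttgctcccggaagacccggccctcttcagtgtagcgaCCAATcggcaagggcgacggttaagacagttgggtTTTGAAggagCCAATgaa
Top2a (chr11:99024190-99024309, - strand): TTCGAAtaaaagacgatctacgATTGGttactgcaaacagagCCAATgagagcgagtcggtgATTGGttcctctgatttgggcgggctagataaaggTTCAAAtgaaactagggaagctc
Ube2c (chr2:164769809-164769928, + strand): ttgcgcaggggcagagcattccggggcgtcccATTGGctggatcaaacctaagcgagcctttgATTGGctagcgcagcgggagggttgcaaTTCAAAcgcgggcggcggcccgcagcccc
Kif11 (chr19:37376262-37376381, + strand): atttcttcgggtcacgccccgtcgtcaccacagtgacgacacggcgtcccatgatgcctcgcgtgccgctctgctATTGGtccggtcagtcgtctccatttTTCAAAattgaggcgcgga
Ccne1 (chr7:38107491-38107610, - strand): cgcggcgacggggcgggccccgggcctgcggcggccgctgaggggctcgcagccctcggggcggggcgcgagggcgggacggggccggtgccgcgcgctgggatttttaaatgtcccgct
In the 5 printed sequences with CHR letters, those closest to the start stand between a CCAAT box and the start, and in Cdc20 another CCAAT box lies nearer to the start. Kif2c and Mki67 also carry CHR letters in these 120 bases and are not printed, and the window of Kif2c holds no CCAAT box. No window was given for Aurkb, Tpx2, Kif20a, Cdc25c, Ccna2 and Foxm1.

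All 35 members were weakly expressed. The mean over the 13 mice ran from -3.69 for Cenpf to -0.83 for E2f1, with a median of -2.52, where the median gene of the table had a mean of -1.02. Every member had a mean below 0, as did 64% of all genes. A value above 0 was reached in at least 1 mouse by 3 members, Mki67 (0.52 in old-OSKM mouse 1), Top2a (0.34 in the same mouse) and E2f1 (0.08 in young mouse 1). Near the lower end the same value recurred: 8 of 35 members (22.9%, against 29.2% of all genes) had at least 4 mice within 0.1 of a common low value. Cdc25c, the phosphatase that activates Cdk1, stood near -3.74 in 9 of the 13 mice, and Nuf2, Ttk and Kif2c stood at such a level in 6 mice each. The number of reads behind a value is unknown. The kit is not one that marks the strand, and 9 members overlap another protein-coding gene, whose reads cannot be told apart from theirs where they overlap. These are Ccna2 (Exosc9), Foxm1 (Tex52), E2f1 (Necab3), Aurka (Cstf1), Cdc20 (Elovl1), Nusap1 (Oip5), Kif20a (Brd8 and Cdc23), Prc1 (Rccd1) and Anln (9530077C05Rik).

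Old-OSKM mouse 1 stood apart from the other mice. It had the highest value of all 13 mice in 31 of the 35 members, a place it took in 8.5% of all genes. The exceptions were Ccne1 (highest in young mouse 4), E2f1 (young mouse 1), Mybl2 (old-OSKM mouse 2) and Kif20a (old mouse 2). The mean over the 35 members was -2.47, -2.28, -2.87 and -2.27 in young mice 1 to 4, and -2.46, -2.79, -3.09, -2.55 and -2.72 in old mice 1 to 5. In old-OSKM mice 1 to 4 it was -1.27, -2.18, -2.89 and -2.68. Old-OSKM mouse 1 thus lay above every other mouse, and mouse 2 lay just above the highest young mouse. Mice 3 and 4 lay within the range of the old mice, which overlaps with that of the young mice. Mouse 4 also lay within the young range, and mouse 3 lay just below it. The mean over all genes was -1.03 in each of the 13 mice, as quantile normalization sets it. The mean correlation of a library with the others over all genes ran from 0.967 to 0.981, and it was lowest in old-OSKM mouse 4 (0.967), young mouse 3 (0.969) and old-OSKM mouse 1 (0.970).

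**Figure D1:**
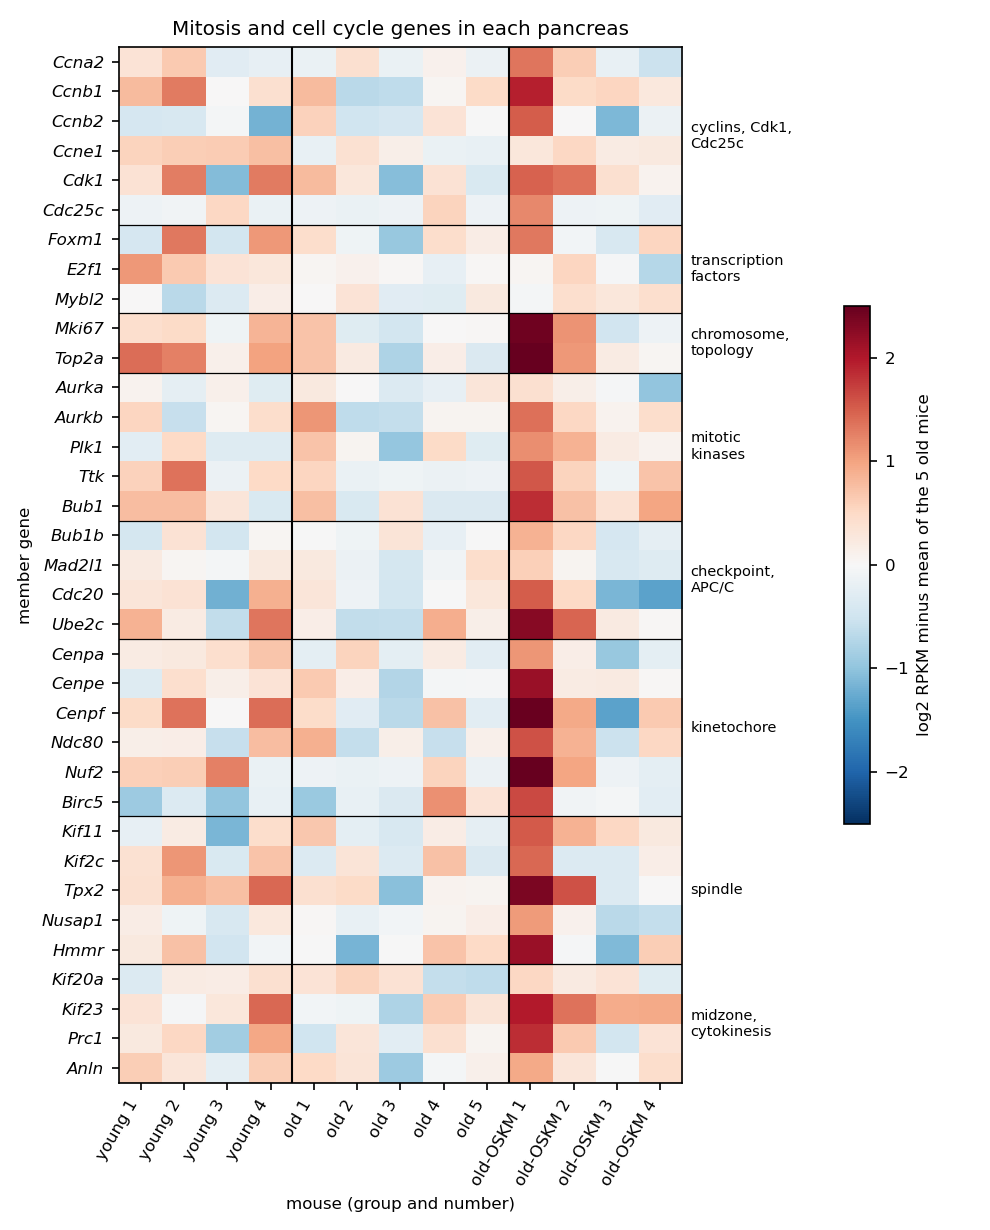
Heat map of the 35 members (vertical, grouped by role) in the 13 mice (horizontal), coloured by log2 RPKM minus the mean of the 5 old mice, with red above and blue below that mean. The column of old-OSKM mouse 1 is red for nearly every member, while Ccne1, E2f1, Mybl2, Aurka and Kif20a are pale there.

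Set against the mean of the old mice, the members of old-OSKM mouse 1 were higher by a median of 1.51 on the log2 scale, which is 2.86-fold, and 31 of 35 lay above the highest old mouse (16.8% of all genes did). Its largest differences from the old mean were in Nuf2 (2.57), Top2a (2.48), Cenpf (2.48), Mki67 (2.43) and Tpx2 (2.36). In old-OSKM mouse 2 the median difference was 0.51 and 18 members lay above the highest old mouse (14.5% of all genes). In mouse 3 the median was -0.11 with 1 such member (34.8% of all genes), and in mouse 4 it was 0.06 with 5 such members (24.2% of all genes). Mice 1 and 2 had 0 members below the lowest old mouse, where 48.4% of all genes lay there in mouse 1 and 11.5% in mouse 2. Mice 3 and 4 each had 8 members below the lowest old mouse, 8 of 35, where 10.1% of all genes lay there in mouse 3 and 50.1% in mouse 4. The 18 members with CHR letters near the start were all highest of 13 in old-OSKM mouse 1, with a median difference of 1.54 from the old mean, and of the 11 members whose window lacked them there 8 were, with a median of 1.43.

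By role, the shift of old-OSKM mouse 1 from the mean of the old mice was largest for Mki67 and Top2a together (2.46 in the mean of the role) and for the kinetochore genes (1.93). It was 1.71 for spindle motors and microtubule binding, 1.32 for the spindle checkpoint genes and for the midzone genes, 1.29 for the cyclins with Cdk1 and Cdc25c, and 1.27 for the mitotic kinases. It was 0.44 for the 3 transcription factors, of which Foxm1 alone was highest in that mouse. These are differences within 1 library and have no replicate.

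Among the cyclins and their kinase, Ccne1 (cyclin E1, which with Cdk2 starts S phase) had log2 RPKM values of -1.88, -1.81, -1.79 and -1.68 in the young mice, -2.61, -2.04, -2.28, -2.60 and -2.63 in the old mice, and -2.16, -1.92, -2.22 and -2.19 in the old-OSKM mice. Every young mouse lay above every other mouse, and old-OSKM mouse 1 lay inside the range of its group. Cdk1, the kinase that drives entry into mitosis, had values of -2.70, -1.79, -4.16 and -1.76 in the young mice, -2.27, -2.79, -4.13, -2.70 and -3.44 in the old mice, and -1.60, -1.71, -2.66 and -2.98 in the old-OSKM mice. The 3 groups overlapped, with young mouse 3 and old mouse 3 lowest and old-OSKM mice 1 and 2 highest. Ccnb1 (cyclin B1, the partner of Cdk1) had values of -2.48, -1.98, -3.26 and -2.87 in the young mice, -2.48, -3.96, -3.91, -3.22 and -2.79 in the old mice, and -1.32, -2.79, -2.74 and -3.01 in the old-OSKM mice. Its highest value was again in old-OSKM mouse 1, and the other 3 old-OSKM mice lay within the old range. The other members of the role are cyclin A2 (Ccna2), cyclin B2 (Ccnb2) and Cdc25c, and all 3 were highest in old-OSKM mouse 1.

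Among the transcription factors, E2f1 (an activator of S phase genes) had log2 RPKM values of 0.08, -0.34, -0.66 and -0.71 in the young mice, -0.95, -0.89, -0.97, -1.20 and -0.96 in the old mice, and -0.95, -0.45, -1.03 and -1.71 in the old-OSKM mice. The young mice all lay above the old mice, and the old-OSKM mice spread from within the young range to below the lowest old mouse. Foxm1, an activator of mitotic genes, had values of -3.73, -2.01, -3.77 and -2.22 in the young mice, -2.88, -3.42, -4.27, -2.88 and -3.14 in the old mice, and -2.0, -3.39, -3.72 and -2.77 in the old-OSKM mice. The young mice split, with 2 among the 3 highest and 2 among the 3 lowest of all 13 mice. Mybl2 (B-Myb) had values of -2.99, -3.66, -3.33 and -2.83 in the young mice, -2.99, -2.65, -3.27, -3.29 and -2.75 in the old mice, and -3.04, -2.56, -2.70 and -2.56 in the old-OSKM mice. Here old-OSKM mouse 1 was the lowest of its group.

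Mki67, the proliferation antigen that coats mitotic chromosomes, had log2 RPKM values of -1.49, -1.43, -2.01 and -1.06 in the young mice, -1.20, -2.21, -2.37, -1.89 and -1.88 in the old mice, and 0.52, -0.78, -2.39 and -2.04 in the old-OSKM mice. Top2a, the topoisomerase that untangles sister chromatids, had values of -0.75, -0.88, -2.02 and -1.14 in the young mice, -1.42, -1.92, -2.91, -1.97 and -2.5 in the old mice, and 0.34, -1.07, -1.94 and -2.09 in the old-OSKM mice. In both genes old-OSKM mouse 1 was highest of all, mouse 2 lay above every old mouse, and mice 3 and 4 lay within the old range, except that mouse 3 lay just under it for Mki67. For Top2a 3 of the 4 young mice were above every old mouse.

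Among the mitotic kinases, Plk1 (polo-like kinase 1) had log2 RPKM values of -3.16, -2.38, -3.21 and -3.22 in the young mice, -2.17, -2.82, -3.86, -2.41 and -3.18 in the old mice, and -1.72, -2.03, -2.69 and -2.79 in the old-OSKM mice, and Aurkb (the catalytic subunit of the chromosomal passenger complex) had values of -2.61, -3.72, -3.10 and -2.70 in the young mice, -2.03, -3.78, -3.74, -3.07 and -3.08 in the old mice, and -1.77, -2.62, -3.06 and -2.70 in the old-OSKM mice. The 3 groups overlapped in both. Bub1, a spindle checkpoint kinase, had values of -3.13, -3.11, -3.58 and -4.27 in the young mice, -3.14, -4.28, -3.53, -4.26 and -4.25 in the old mice, and -2.05, -3.15, -3.52 and -2.91 in the old-OSKM mice. Of its old mice 3 stood near -4.26, a value that young mouse 4 shared, and no old-OSKM mouse did. Aurka and Ttk complete the role.

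**Figure D2:**
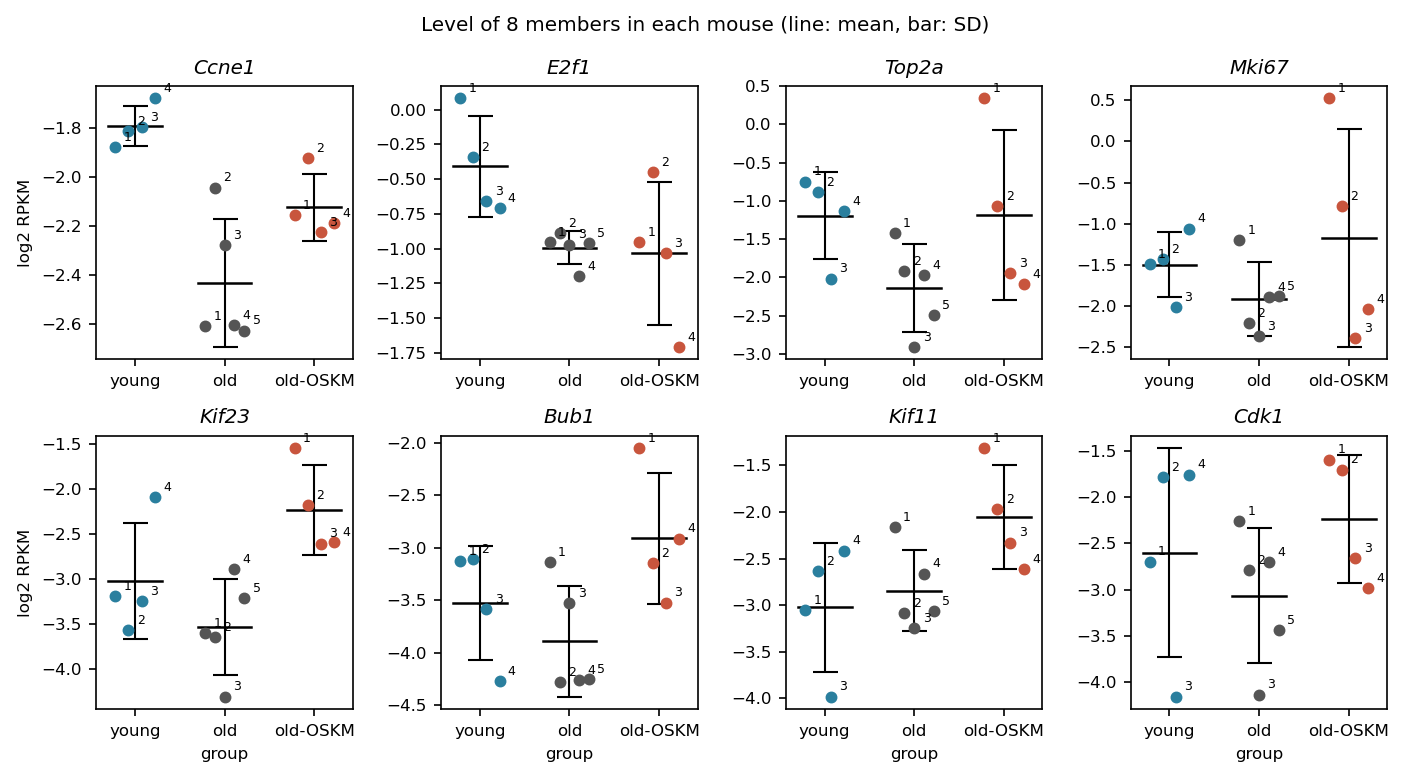
Log2 RPKM (vertical) of 8 members in each mouse, by group (horizontal), with the mouse number beside each point, the mean as a line and the SD as a bar. The young points of Ccne1 and E2f1 lie above all old points, the old-OSKM points of Kif23 lie above all old points, and old-OSKM mouse 1 is the highest point of the other panels.

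In the spindle checkpoint and anaphase promoting complex role, Cdc20, the activator that turns the complex on at anaphase, had log2 RPKM values of -2.21, -2.16, -3.71 and -1.62 in the young mice, -2.20, -2.63, -2.96, -2.52 and -2.24 in the old mice, and -1.0, -2.02, -3.65 and -3.84 in the old-OSKM mice. Old-OSKM mice 1 and 4 were the highest and the lowest of all 13 mice. Bub1b, Mad2l1 and Ube2c, the ubiquitin-conjugating enzyme of that complex, were also highest in old-OSKM mouse 1, and Ube2c reached -0.12 there. Among the kinetochore genes, Cenpf had values of -3.68, -2.79, -4.13 and -2.76 in the young mice, -3.69, -4.42, -4.81, -3.41 and -4.40 in the old mice, and -1.67, -3.19, -5.49 and -3.49 in the old-OSKM mice. Old-OSKM mouse 3 had the lowest value and mouse 1 the highest value of all mice, a range of 3.82. Birc5 (survivin, a subunit of the chromosomal passenger complex) had values of -3.22, -2.64, -3.28 and -2.48 in the young mice, -3.23, -2.49, -2.67, -1.15 and -1.97 in the old mice, and -0.65, -2.38, -2.35 and -2.57 in the old-OSKM mice. Old mouse 4 and old-OSKM mouse 1 stood above the rest. Cenpa, Cenpe, Ndc80 and Nuf2 were all highest in old-OSKM mouse 1.

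Among the spindle genes, Kif11 (the kinesin that pushes spindle poles apart) had log2 RPKM values of -3.05, -2.64, -3.98 and -2.41 in the young mice, -2.16, -3.09, -3.25, -2.66 and -3.06 in the old mice, and -1.31, -1.97, -2.33 and -2.61 in the old-OSKM mice. All 4 old-OSKM mice lay above 4 of the 5 old mice. Kif23, a kinesin of the central spindle needed for cytokinesis, had values of -3.19, -3.57, -3.25 and -2.09 in the young mice, -3.61, -3.65, -4.31, -2.89 and -3.22 in the old mice, and -1.55, -2.19, -2.61 and -2.59 in the old-OSKM mice. All 4 old-OSKM mice lay above all 5 old mice. Prc1, which bundles the microtubules of the midzone, had values of -2.01, -1.73, -3.12 and -1.29 in the young mice, -2.75, -1.96, -2.51, -1.86 and -2.18 in the old mice, and -0.41, -1.60, -2.71 and -1.90 in the old-OSKM mice. Its groups overlapped. Kif2c, Tpx2, Nusap1, Hmmr, Kif20a and Anln complete these roles, and of them Kif20a was not highest in old-OSKM mouse 1.

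The spread between mice was large for these genes. The median SD of a member was 0.48 in the young, 0.50 in the old and 0.77 in the old-OSKM group, and the last was 0.48 without old-OSKM mouse 1. For 25 of the 35 members the largest SD was in the old-OSKM group. Over all genes the median SD was 0.14, 0.12 and 0.22. Among the young mice, young mouse 3 was the lowest in 20 of the 35 members, against 24.7% of all genes.

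The comparison of old with young pancreas asks which members change with age. Ccne1 was lower in the old mice by 0.64 on the log2 scale (SE 0.12, 95% interval -0.91 to -0.37, a fold of 0.64, adjusted p = 0.12 by limma over all genes), from a mean of -1.79 ± 0.08 (SD, n = 4) to -2.43 ± 0.26 (SD, n = 5). It was the member that passed the call, a fold over 1.5 with a raw p under 0.01, which 0.886% of all genes passed (0.437% as lower). No member was called higher, as 0.449% of all genes were. E2f1 was lower by 0.59 (SE 0.22, adjusted p = 0.76), from -0.41 ± 0.36 (SD, n = 4) to -0.99 ± 0.12 (SD, n = 5), and did not pass. These 2 were the members with a raw p under 0.05, which 2.52% of all genes had as lower. Ccne1 and E2f1 were the 2 members whose old and young mice did not overlap, with all old mice lower, as 1.22% of all genes were. Top2a had the next smallest p (difference -0.95, SE 0.49, adjusted p = 0.99). Over the 35 members the median difference was -0.21, with 27 below 0 and 8 above, where the median of all genes was 0.00 and 54.4% of them lay above 0. The 33 members other than Ccne1 and E2f1 had intervals that included 0. For Cdc20 (-1.35 to 1.17) and Hmmr (-1.38 to 1.16) the interval allows changes of more than 2-fold in either direction, so a change of that size was not detectable there. The widest interval was that of Cenpf (-2.19 to 0.58). No member had an adjusted p under 0.05, as 0.0813% of all genes had.

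The comparison of old-OSKM with old pancreas asks what differs after a cycle of OSKM and recovery. Kif23 was higher in the old-OSKM mice by 1.30 (SE 0.35, 95% interval 0.53 to 2.07, 2.46-fold, adjusted p = 0.55 by limma), from -3.54 ± 0.53 (SD, n = 5) to -2.23 ± 0.50 (SD, n = 4). It was the 1 member called, where 0.753% of all genes were called (0.582% as higher), and the 1 member whose groups did not overlap, as 1.02% of all genes did in that direction. Without old-OSKM mouse 1 the difference was 1.07 (SE 0.36, adjusted p = 0.77) and it was no longer called. Bub1 (0.98, SE 0.35), Ccne1 (0.31, SE 0.12) and Kif11 (0.79, SE 0.35) also had a raw p under 0.05 with an adjusted p of 0.55 each. A raw p under 0.05 with a higher mean was found for 4 of 35 members and for 3.98% of all genes. No member had an adjusted p under 0.05, and 0.00428% of all genes had. Without old-OSKM mouse 1 these differences were 0.70 for Bub1 (SE 0.34), 0.32 for Ccne1 (SE 0.14) and 0.54 for Kif11 (SE 0.35), and of the 3 Ccne1 kept a raw p under 0.05.

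Over the 35 members the median difference of old-OSKM from old was 0.42, with 30 members above 0, where the median of all genes was -0.04 and 36.9% lay above 0. Without old-OSKM mouse 1 the median was 0.17, with 22 members above 0. Several members with large differences did not pass, among them Ube2c (1.00, SE 0.53, adjusted p = 0.60), Top2a (0.95, SE 0.49, adjusted p = 0.58) and Tpx2 (0.91, SE 0.53, adjusted p = 0.61). In all 3, old-OSKM mice 1 and 2 lay above every old mouse and mice 3 and 4 lay within the old range. The median by role was 0.85 for Mki67 and Top2a, 0.63 for the kinetochore genes, 0.60 for the mitotic kinases and 0.08 for the checkpoint genes. Without old-OSKM mouse 1 it was 0.31, 0.12, 0.39 and -0.13. For spindle motors and microtubule binding it was 0.41, and -0.175 without that mouse. It was 0.51 for the midzone genes (0.21 without that mouse) and 0.31 for the cyclins with Cdk1 and Cdc25c (0.15). For the transcription factors it was 0.275 (0.02 without that mouse).

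The comparison of old-OSKM with young pancreas places the treated mice beside the young ones. No member was called, where 0.625% of all genes were, and none had an adjusted p under 0.05, where 0.0428% had. At a raw p under 0.05, which 5.07% of all genes had, 4 members stood out. E2f1 was lower by 0.63 (SE 0.24) and Ccne1 by 0.33 (SE 0.13), with all old-OSKM mice below all young mice for Ccne1 (0.813% of all genes). Kif11 was higher by 0.96 (SE 0.37) and Mybl2 by 0.48 (SE 0.20). The adjusted p by limma was 0.71 for all 4. Ccne1 in the old-OSKM mice (-2.12 ± 0.14, SD, n = 4) thus lay between the old and the young means, while E2f1 (-1.03 ± 0.52, SD, n = 4) lay at the old mean. The 2 comparisons with old-OSKM share its 4 mice, and the 2 with old share its 5. The median over the 35 members was 0.18, with 26 above 0 (38.7% of all genes), and it was -0.18 without old-OSKM mouse 1, against -0.04 and -0.03 for all genes. Kif11 without that mouse was 0.72 (SE 0.37) and no longer had a raw p under 0.05, while Mybl2 at 0.59 (SE 0.21), E2f1 at -0.65 (SE 0.27) and Ccne1 at -0.32 (SE 0.14) did. Cenpa, the centromeric histone, had one in that fit as well, at -0.73 (SE 0.27, adjusted p = 0.82), against -0.37 (SE 0.36) with all mice.

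**Figure D3:**
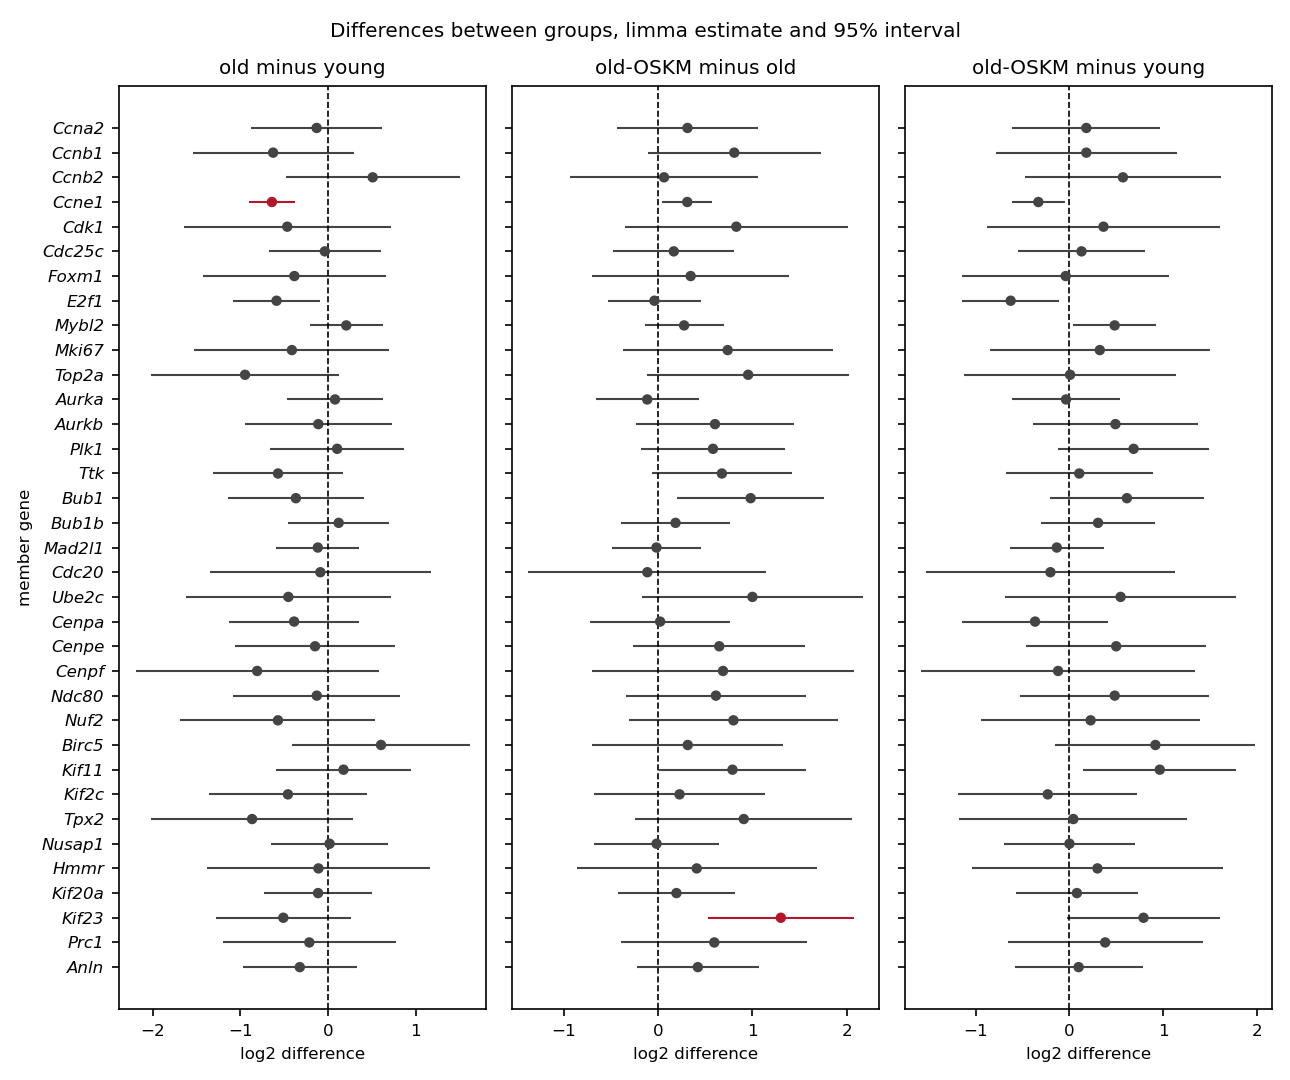
Log2 difference (horizontal) of each member (vertical) in the 3 comparisons, as the limma estimate with its 95% interval, with members called at a fold over 1.5 and a raw p under 0.01 in red. Ccne1 is red in old minus young, Kif23 is red in old-OSKM minus old, and none is red in old-OSKM minus young.

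Genes beside the members in the cell cycle were read from 5 lists. Of 60 other mitotic genes, none was called between old and young, where 0.886% of all genes were. The median difference was -0.18, and Pbk, a mitotic kinase, had the smallest p (-1.05, SE 0.36, adjusted p = 0.68 by limma). Between old-OSKM and old 4 were called, all higher, at an adjusted p of 0.55 each by limma, where 0.582% of all genes were called higher. These were Esco2, an acetyltransferase for sister chromatid cohesion (1.35, SE 0.29), Pbk (1.53, SE 0.36), Knl1, a kinetochore scaffold (1.17, SE 0.31), and Spag5, a spindle protein (1.37, SE 0.38). In each of the 4 the old-OSKM mice lay above all old mice, as they did in 1.02% of all genes. The 4 were picked by the call on the same values, so this is not separate evidence. Esco2 had log2 RPKM values of -4.13, -3.40, -4.17 and -3.49 in the young mice, -3.06, -4.18, -3.06, -4.16 and -4.15 in the old mice, and -1.98, -2.49, -2.43 and -2.57 in the old-OSKM mice. All 4 old-OSKM mice lay above every other mouse, mouse 1 by the widest margin. In old mice 1 to 5 Pbk was at -3.57, -2.92, -3.56, -3.58 and -3.58, and Spag5 was at -3.31, -4.46, -4.43, -4.43 and -3.73. A low value thus recurred among the old mice for Esco2, Pbk and Spag5, as for some members. Their differences are measured from that value, and the reads behind it are not known. Without old-OSKM mouse 1, Esco2 (1.22, SE 0.32) and Pbk (1.26, SE 0.35) were still called and Knl1 (1.01, SE 0.33) and Spag5 (1.11, SE 0.38) were not, at an adjusted p of 0.77 each. The median of the list was 0.40, with 53 of 60 above 0 (36.9% of all genes), and 0.16 without that mouse. In 47 of the 60 old-OSKM mouse 1 was the highest of 13 (8.5% of all genes). Between old-OSKM and young Esco2 was the 1 gene called (1.43, SE 0.31, adjusted p = 0.39 by limma), where 0.625% of all genes were called.

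Of 34 S phase genes, 1 was called between old and young, where 0.437% of all genes were called lower. This was Gins3, a subunit of the replicative helicase complex (-0.63, SE 0.19, adjusted p = 0.55). Between old-OSKM and old 3 were called higher (0.582% of all genes), the exonuclease Exo1 (1.21, SE 0.34), Gins3 (0.60, SE 0.19) and Dtl, a subunit of a ubiquitin ligase of S phase (1.61, SE 0.52), each at an adjusted p of 0.55 by limma. Without old-OSKM mouse 1 they were at 0.97 (SE 0.34), 0.45 (SE 0.18) and 1.22 (SE 0.51), and none was called. Exo1 was at -4.79, -4.13, -4.80, -4.11 and -4.80 in old mice 1 to 5, so its difference is also measured from a low value that recurred. Gins3 had log2 RPKM values of -2.08, -1.52, -2.17 and -1.86 in the young mice, -2.82, -2.24, -2.52, -2.82 and -2.30 in the old mice, and -1.48, -1.97, -2.03 and -2.26 in the old-OSKM mice. It was lower in old than in young mice without overlap, as 1.22% of all genes were, and its old-OSKM mice overlapped with both. The median of the list was -0.17 for old minus young and 0.27 for old-OSKM minus old. Old-OSKM mouse 1 was the highest mouse in 17 of the 34 (8.5% of all genes). Tk1 (thymidine kinase) was called higher in old-OSKM than in young (0.80, SE 0.24, adjusted p = 0.71 by limma), where 0.625% of all genes were called. Without mouse 1 it was at 0.76 (SE 0.27) and not called.

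The last 3 lists hold genes that act before and around the division program. The 14 genes of the G1 cyclin and kinase list had medians of -0.02 and 0.01 for old minus young and old-OSKM minus old. None was called, where 0.886% and 0.753% of all genes were. Besides cyclins and kinases this list holds Mycn, Skp2, Mnat1, Cdc25a, Cdc25b and Myc, which is also a factor of the cassette. Ccnd2 (cyclin D2) was lower in old than in young by 0.44 (SE 0.13, adjusted p = 0.49), under the fold that the call needs. Of 30 inhibitors and DREAM or Rb genes, Cdkn1c, a Cdk inhibitor (-0.69, SE 0.21, adjusted p = 0.55), and E2f3 (-0.75, SE 0.23, adjusted p = 0.56) were called lower in old than in young, as 0.437% of all genes were. The median of that list was -0.07, with differences from -0.75 to 0.92. None of the 30 was called between old-OSKM and old, where E2f5 had the smallest p (-0.23, SE 0.07, adjusted p = 0.55). The 17 genes of the anaphase promoting complex list, which includes Fbxo5, an inhibitor of the complex, had medians of -0.03 and -0.01. None of them was called. Old-OSKM mouse 1 was the highest mouse in 1 of 14, 3 of 30 and 1 of 17 genes of these lists (8.5% of all genes). Cdc25b (0.57, SE 0.25) and Anapc10 (-0.30, SE 0.13) had the smallest p of their lists between old-OSKM and old, and Cdc16 (-0.08, SE 0.05) that of its list between old and young. Against young, the smallest p was at Ccnd2 (-0.29, SE 0.13), E2f5 (-0.28, SE 0.08) and Anapc13 (-0.20, SE 0.10). None of these passed the call.

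Markers of some other cell types moved with the members in old-OSKM mouse 1, and their part in the members' values was not tested. That mouse was the highest of 13 in 9 of 9 measured T cell genes, 9 of 9 B and plasma cell genes, 8 of 10 macrophage genes, 6 of 7 adipocyte genes and 7 of 11 germinal centre and lymph node genes. It took that place in 8.5% of all genes. Its list means exceeded the mean of the old mice by 2.20, 1.74, 1.64, 2.98 and 0.99 on the log2 scale, against 1.46 for the members. The islet beta list was lower by 1.53, and the acinar, duct and endothelial lists differed by -0.06, 0.08 and 0.11. Values of the most abundant acinar genes are largely set by quantile normalization, so -0.06 is not a measure of acinar content. The fibroblast and stellate list differed by 0.72 and the myeloid progenitor and neutrophil list by 0.78. For the islet alpha and delta list the difference was -0.59, and for the erythroid and blood list it was 0.01. The log2 of the summed RPKM of the T cell list ran from 0.13 to 0.75 in the young, 0.50 to 1.54 in the old and 0.64 to 3.13 in the old-OSKM mice. For the B and plasma cell list it ran from 0.49 to 1.68, 1.80 to 3.22 and 2.06 to 3.97, for the macrophage list from 3.95 to 4.74, 3.59 to 4.39 and 4.21 to 5.66, for the adipocyte list from 1.85 to 3.18, 1.68 to 2.47 and 1.87 to 3.83, and for the germinal centre list from 1.76 to 2.32, 1.85 to 2.40 and 1.85 to 3.02. For the 35 members it ran from 2.60 to 3.14, 2.38 to 2.92 and 2.54 to 4.07.

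Some marker lists had differences above 0 between the old-OSKM and old groups as well, beside the members' median difference of 0.42 (0.17 without old-OSKM mouse 1). The macrophage list had a median difference of 0.82 (0.51 without that mouse), with all 10 genes above 0 in both fits and 9 of 10 higher at a raw p under 0.05 with all mice (3.98% of all genes). Of these C1qc, a complement gene, was called higher (1.02, SE 0.32, adjusted p = 0.55 by limma), as 0.582% of all genes were. The fibroblast and stellate list had a median of 0.56 (0.59 without that mouse), and the collagen genes Col1a1 (0.88, SE 0.26) and Col1a2 (0.89, SE 0.28) were called higher at an adjusted p of 0.55 each. The adipocyte list had a median of 1.32 (0.72 without that mouse), and Plin1, which coats lipid droplets, was called higher (1.53, SE 0.47, adjusted p = 0.55). The T cell and the B and plasma cell lists had medians of 0.62 and 0.40, which were 0.06 and -0.06 without that mouse, and none of their genes was called. None of these marker genes was called without old-OSKM mouse 1, and the part of these lists in the members' group difference was not tested.

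**Figure D4:**
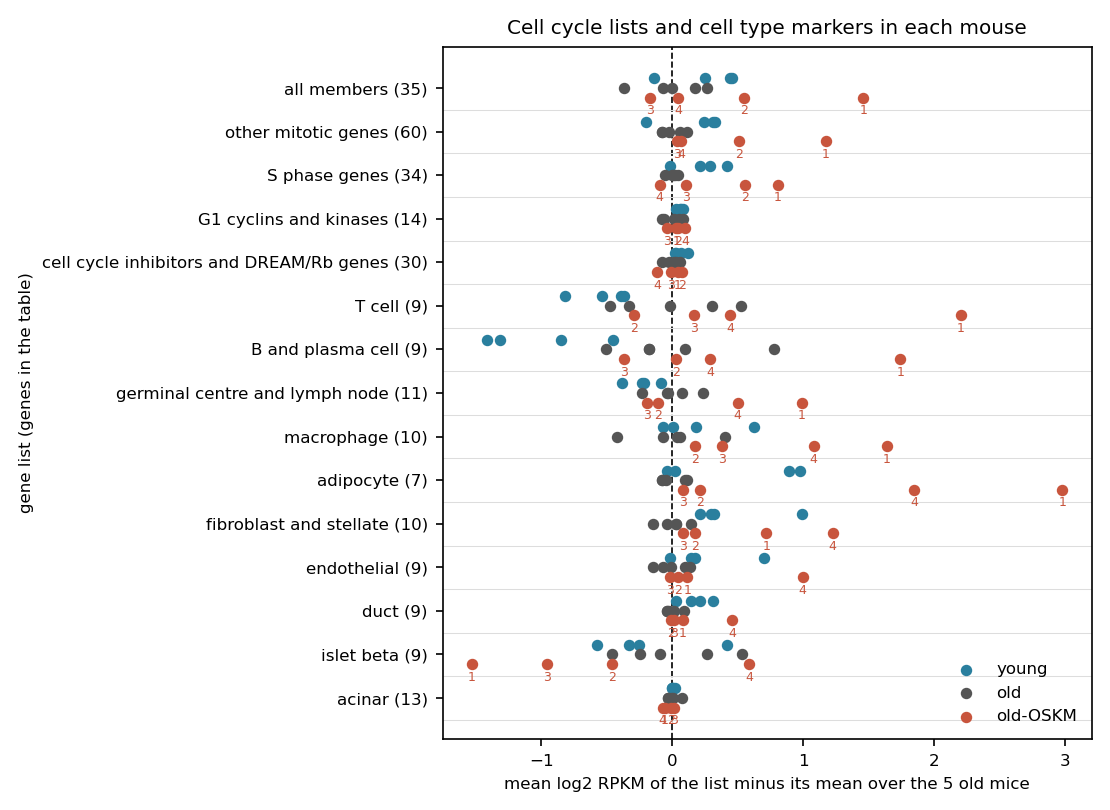
Mean log2 RPKM of each list minus its mean over the 5 old mice (horizontal) for the members, the other cell cycle lists and cell type markers (vertical), with 1 point per mouse coloured by group and the old-OSKM mice numbered. Old-OSKM mouse 1 lies far to the right for the members (1.46) and for the T cell (2.20) and adipocyte (2.98) lists, and mouse 4 is raised for adipocyte (1.85) but not for the members (0.04).

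The other mice were mixed in this respect. Old-OSKM mouse 2, next after mouse 1 in the mean of the members (-2.18), had a T cell list mean of -2.60, inside the range of the old mice (-2.78 to -1.79), and a B and plasma cell mean of -1.48, also inside theirs (-2.01 to -0.73). Old-OSKM mouse 4 exceeded the mean of the old mice by 1.85 in the adipocyte list, 1.22 in the fibroblast and stellate list, 1.08 in the macrophage list and 0.99 in the endothelial list, while its members exceeded theirs by 0.04. That mouse was also the lowest of 13 in 44.7% of all genes and in 6 of the 35 members. Among the old mice, mouse 1 had the highest mean of the members (-2.46) and the highest T cell (-1.79) and B and plasma cell (-0.73) means. Among the young mice, mouse 3 had the lowest mean of the members (-2.87) and the highest B and plasma cell mean (-1.96).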

How the data were processed

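Pancreas RNA was depleted of ribosomal RNA and made into libraries with a kit that does not mark the strand. The authors aligned the reads with STAR 2.3.0e to mm10, estimated transcript levels with Casper, summed them per Entrez gene and quantile normalized them, and the deposited table holds the resulting log2 RPKM values. The study states 1 nominal read number for all samples, but counts and the exact total of each library are not given in the sources used here, so no interval for counting error can be given and the correction for total reads that the study made could not be repeated. Sorted values differed by at most 0.0116 between libraries, and no pair of libraries shared more than 0.668% identical values. Symbols from the reference matched 23273 of 23366 genes.

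Groups were taken from the sample labels. limma 3.58.1 in R 4.3.3 was fitted to all genes and all 13 mice with the group as the only term, and adjusted p-values (Benjamini-Hochberg) are over all genes. A gene was called at a fold over 1.5 and a raw p under 0.01, as in the study. All tests were two-sided. Promoter letters were searched as exact matches with Python 3.11.15. The members and lists were chosen with earlier results of these data known, so no p is given for a list. Values in every mouse are given for members called in any comparison, for the 3 members of smallest p in each, and for 14 members fixed by role. Of the other lists, the called genes and the gene of smallest p are named. Alternatives were another normalization, filters on low values, pseudocounts, covariates, call rules and leaving out mice.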

Additional observations from a re-analysis of the deposited data

Results flagged for a closer look

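Values were compared within each group for the members and lists, 162 groups of values in all, and 14 held a highest or lowest mouse far from the rest by Dixon's ratio at the 95% level. Chance alone gives about 1 in 20. In the old-OSKM group mouse 1 was far above the others for Ccnb1 (-1.32), Cdc25c (-2.41), Cenpe (-1.56) and Birc5 (-0.65). In the young group mouse 3 was high for Cdc25c (-3.09) and mouse 2 was high for Plk1 (-2.38). In the old group mouse 4 was high for Cdc25c (-3.06) and Nuf2 (-3.26) and low for E2f1 (-1.20), mouse 1 was high for Ttk (-3.13), and mouse 3 was low for Tpx2 (-3.80). For Cdc25c, Nuf2 and Ttk the other old mice shared a common low value. Among the list means, young mouse 3 was low for the other mitotic genes (-2.73), young mouse 4 was high for the fibroblast and stellate list (2.04), and old-OSKM mouse 4 was high for the endothelial list (1.79).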

How the results depend on the processing

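The median difference of the members kept its sign for old minus young and for old-OSKM minus old under every alternative run, but not its size. It was -0.21 for old minus young and ranged from -0.38 to -0.14 over the fits that each left out 1 mouse (-0.38 without young mouse 3, -0.35 without old mouse 1 and -0.14 without young mouse 2), with -0.04 at a pseudocount of 1. For old-OSKM minus old it was 0.42, with 0.17 to 0.71 over those fits (0.17 without old-OSKM mouse 1 and 0.71 without mouse 3), 0.19 with a mean above -2, 0.07 at a pseudocount of 1, and 0.22 without old-OSKM mice 1 and 4. For old-OSKM minus young it was 0.18, with -0.18 to 0.48 over those fits, and its sign turned without old-OSKM mouse 1 (-0.18) and without mice 1 and 4 (-0.12). It was 0.04 without young mouse 3, 0.33 without young mouse 2, 0.48 and 0.36 without old-OSKM mice 3 and 4, 0.01 with a mean above -2 and 0.05 at a pseudocount of 1. The mean over the members differed between mice by an SD of 0.28 in the young, 0.25 in the old and 0.72 in the old-OSKM group. Pooled over the 3 groups this SD was 0.45, which is larger than each of the 3 medians. It is a spread of single mice and not the SE of a difference between groups. Counts of calls rested on few genes and moved. For old versus young, 1 member was called, and 0 were with a mean above -2, with a pseudocount of 1 or 0.1, or at an adjusted p under 0.05. The count was 2 with the 2 groups alone, with the mean z-score of all genes as a covariate, without old-OSKM mice 1 and 4 (an alternative chosen after seeing the data) and at a raw p under 0.05, and 1 to 2 in the fits that left out a mouse (2 without old-OSKM mouse 4). The added member was E2f1. For old-OSKM versus old, 1 member was called, and 0 were with a mean above -2, a pseudocount of 1, the z-score covariate, an adjusted p under 0.05 or without old-OSKM mice 1 and 4, and 4 at a raw p under 0.05. Leaving out a mouse gave 0 to 2, with 0 without old-OSKM mouse 1 and 2, Bub1 added, without old mouse 1 or old-OSKM mouse 3. For old-OSKM versus young, 0 were called, 4 at a raw p under 0.05, and 0 to 1 without a mouse, with 1 without young mouse 4 or old-OSKM mouse 2. A filter on a mean above 0 leaves no member to test.

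Of the 155 genes of the 5 other lists, 3 were called between old and young, where 0.886% of all genes were. The count was 0 with a mean above 0, a pseudocount of 1 or an adjusted p under 0.05, 1 with a pseudocount of 0.1 or the z-score covariate, 13 at a raw p under 0.05, and 0 to 6 without a mouse (0 without old mouse 1 or 3, 1 without young mouse 1, 2 or 4, and 6 without young mouse 3). Of all 23366 genes, 702 had a raw p under 0.05 as higher in old than in young and 588 as lower. Between old-OSKM and old 7 were called, where 0.753% of all genes were. That count was 0 with a mean above 0, a pseudocount of 1, an adjusted p under 0.05 or without old-OSKM mice 1 and 4, 1 with a mean above -2, 4 with the z-score covariate, 31 at a raw p under 0.05, and 2 to 11 without a mouse (2 without old-OSKM mouse 1, 3 without mouse 2 and 11 without mouse 4). Of all genes, 931 had a raw p under 0.05 as higher in old-OSKM than in old and 954 as lower. A pseudocount shrinks differences at these low levels by construction. The cause of the other moves was not tested. Repeating the quantile normalization, centring on the sample median, robust eBayes with a trend, and a covariate that splits the 2 runs of identifier numbers moved none of these counts by over 1.5 times. No paired analysis was possible, because each mouse gave 1 library and belonged to 1 group, and the labels link no mouse to a mouse of another group. All members lie below 1 RPKM on average, and the reads behind each value are not known.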
